A study of Mus musculus with 72 samples.

Results

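The 24 h rhythm of liver transcripts was compared between 2 diets in mice, one deficient in methionine and choline (MCD) and a control diet of equal energy. All 36 liver libraries of a series of 72 entered the comparison, 18 per diet; the other libraries come from the suprachiasmatic nucleus and were not used here. The question was which genes gain or lose range over the day and which change the time of their peak. Of 20249 liver genes fitted, the 13840 with a mean of at least 1 CPM (counts scaled to a common library total) are described.

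Per the labels, the mice were of the C57BL/6 strain, bought at 8 to 12 weeks of age and housed singly with free access to food and water. They ate either diet for 11 days, spent 10 of them in a 12 h light and 12 h dark cycle, and were killed on the last day in constant darkness. Each diet was sampled at circadian times (CT) 0, 4, 8, 12, 16 and 20 h, with 3 libraries per diet and time, 2 from males and 1 from a female. The growth protocol speaks of males, but 12 liver libraries are labelled female, and these labels were followed. The libraries of a group are numbered as replicates without naming the animal, so p-values measure the spread between these libraries. Every time is represented by other animals, so a rhythm is a pattern across mice and not a series within a mouse. Bulk liver cannot tell a change in RNA per cell from a change in the number of cells of a type.

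Methionine is converted to S-adenosylmethionine, the methyl donor of most cellular methylation reactions, and choline feeds methyl groups back into methionine through betaine and is a building block of phosphatidylcholine. The circadian clock is a transcriptional loop in which BMAL1 (gene Arntl) and CLOCK or NPAS2 bind E-box elements and switch on their own repressors, the Per and Cry genes, while REV-ERB (Nr1d1, Nr1d2) and ROR proteins act on a second element to shape Arntl expression. In liver, many more genes follow this loop, the times of feeding, body temperature and hormones. The MCD diet is widely used to produce fatty liver and inflammation in mice.

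Total counts ran from 52.6 to 86.7 M per library with a median of 64.4 M, and the median gene varied by 0.208 (control) and 0.207 (MCD) log2 units within a group (SD). A wide gap in mt-Nd6, a mitochondrial transcript of the strand opposite to most others, split the libraries into a low and a high kind. It lay at 32.8 to 133 CPM in 21 libraries (8 control and 13 MCD) and at 379 to 1040 CPM in 15 (10 control and 5 MCD), and the 3 MCD libraries of CT16 were all of the low kind. The library labelled control CT08 a, a male, went against its label in mean level. Over 710 genes whose mean differed more than 2 times between the diets, on a scale with 0 at the mean control library and 1 at the mean MCD library, it lay at 1.01, the other 17 control libraries at -0.28 to 0.18 and the 18 MCD libraries at 0.62 to 1.51. Leading counts are therefore also given with a term for library kind and without control CT08 a. Summed markers of hepatocytes spanned 98600 to 137000 CPM in control livers, and 75300 to 139000 CPM was their span under MCD. None of the 11 macrophage, 10 stellate cell and 10 endothelial markers of at least 1 CPM was called for a difference in rhythm. Macrophage markers summed to a median of 469 CPM (359 to 883) on control and of 653 CPM (490 to 1070) under MCD, and neutrophil markers to 2.83 CPM (1.30 to 7.36) and 6.55 CPM (3.20 to 24.3). Erythrocyte markers were lower under MCD, with a median of 143 CPM (93.7 to 273) against 273 CPM (130 to 453) on control, and none of them was called. The part of these cell types in the results was not tested.

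Rhythm differed between the diets for 954 of the 13840 genes (6.89%) at an adjusted p under 0.05, by edgeR's quasi-likelihood F test of the cosine and sine components together, with Benjamini-Hochberg adjustment over all 20249 genes. Unadjusted, 3602 of these genes had a p under 0.05. The range of a gene is the distance from peak to trough of its fitted 24 h component in log2 units, so that a range of 1 means a peak 2 times the trough. Among called genes, the range was larger on MCD for 702 and smaller for 252. By more than 2 standard errors (SE), 378 genes had a higher range on MCD (2.73% of the genes described) and 77 a lower range (0.556%). A peak was taken as moved where the rhythm was also called on each diet by itself and the peak times differed by more than 2 SE, and this held for 344 genes (2.49%). Of these, 264 had ranges within 2 SE of each other, 64 also had a higher range and 16 a lower one. The other 235 called genes were in none of these classes.

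The called set depended on having all the libraries. A term for library kind raised the count to 1068, with 939 of the 954 among them. The fits within 1 kind also replaced the 12 groups by a cosinor model, which with all libraries called 908 genes. Within the low kind edgeR then called 7 genes (2440 at an unadjusted p under 0.05) and within the high kind 0 (1479 at an unadjusted p under 0.05), from 21 and 15 libraries. Without control CT08 a, 1203 genes were called, including 884 of the 954. Leaving out the 11 libraries numbered 1 or the 11 numbered 2, all male, left 5 and 4 called genes. Without the single library control CT04 2 the count was 618, with 249 of higher range, 50 of lower range and 214 with a moved peak. The lower-range count went the other way without control CT08 a, to 126, and without control CT08 3, to 119. In all, 468 of the 954 genes were called in every one of the 36 fits that left out 1 library. The genes described below by name were called, had counts in every library and kept the call with the kind term and without control CT08 a, except where a different rule is stated.

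**Figure D1:**
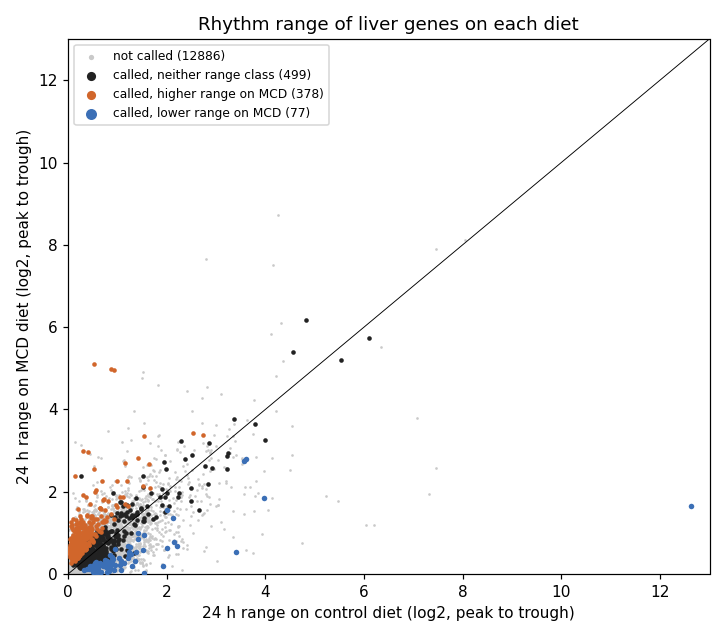
Range of the 24 h component on the control diet (x axis) and on MCD (y axis) in log2 units, 1 point per gene of at least 1 CPM, with the line of equal range. The 378 called genes of higher range lie above that line, with medians of 0.20 on control and 0.71 on MCD, and the 77 of lower range below it, with 0.84 and 0.24; the point farthest to the right is Scd3, with a fitted range of 12.6 on control.

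Genes of higher range were mostly genes with little rhythm on control. Their median range was 0.20 on control and 0.71 on MCD, against medians of 0.32 and 0.38 over all 13840 genes. For 304 of the 378 the rhythm was called on MCD alone, and for 74 on both diets. Genes of lower range showed the opposite, with a median of 0.84 on control and 0.24 on MCD, and for 59 of 77 the rhythm was called on control alone. These medians describe classes that were chosen by the same values.

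Hnrnpll, an RNA-binding protein that regulates splicing, was flat on control and rhythmic on MCD. On control the 18 libraries lay between 25.9 and 32.9 CPM at all 6 times. On MCD the 3 libraries lay at 34.9, 41.8 and 42.4 CPM at CT4 and at 39.9, 40.6 and 43.4 CPM at CT8, and at 16.7, 17.5 and 18.3 CPM at CT16. At CT4 and CT8 all MCD libraries were above the control libraries of that time, and at CT16 and CT20 all were below. The range was 0.06 ± 0.09 (SE) on control and 1.27 ± 0.09 on MCD, a difference of 1.21 ± 0.13 (adjusted p = 3.39e-05, edgeR), while the mean over the day differed by -0.05 log2 units (MCD minus control, adjusted p = 0.438).

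Gramd1c, an endoplasmic reticulum protein of a family that moves sterols between membranes, gained a peak late in the night. On MCD it lay at 78.5, 92.1 and 100 CPM at CT20 and at 42.3, 43.6 and 55.3 CPM at CT12. On control it lay at 57.6, 58.9 and 61.4 CPM at CT20 and at 44.2, 50.3 and 52.6 CPM at CT12. The diets did not overlap at CT20 and overlapped at CT12. Its range was 0.22 on control and 1.01 on MCD (difference 0.79 ± 0.14 SE, adjusted p = 0.000672, edgeR).

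Ccn4, a secreted matrix-associated signalling protein, had the largest range on MCD among the 10 genes of higher range with the smallest adjusted p. On MCD it lay at 7.04, 7.46 and 11.5 CPM at CT0 and at 1.13, 1.28 and 1.47 CPM at CT12, and on control at 2.67, 3.71 and 4.38 CPM at CT0 and 1.07, 1.25 and 1.82 CPM at CT12. The MCD libraries were all above the controls at CT0 and lay among them at CT12. Its range rose from 1.41 to 2.81 (difference 1.40 ± 0.31 SE, adjusted p = 0.000409, edgeR) and its peak was 4.01 ± 0.66 h earlier on MCD.

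The other genes among those 10 have varied roles. Cdk9, the kinase of the elongation factor P-TEFb, lay at CT16 on MCD at 47.1, 48.3 and 50.2 CPM, against 23.2, 27.3 and 31.8 CPM on control, and its range was 0.22 on control and 0.69 on MCD (difference 0.48 ± 0.12 SE). Kdm2a, a histone H3 demethylase, had ranges of 0.24 and 0.57, and Ddx42, an RNA helicase, had 0.20 and 0.43. Lrrc8d, a subunit of the volume-regulated anion channel, had ranges of 0.47 and 1.22 and lay at 58.3, 83.0 and 88.8 CPM at CT20 on MCD and 40.5, 41.5 and 51.9 CPM on control, with no overlap. Rnf6, a ubiquitin ligase, had ranges of 0.24 and 0.54. Fam102a was also in this class and is described with the moved peaks, and Gm6344, annotated as a processed pseudogene on the strand opposite to Uimc1, is uncertain.

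Higher-range genes were not spread evenly over the day. On MCD 176 of the 378 (46.6%) peaked from CT16 to CT20, against 23.7% of the 5323 genes with a rhythm called on MCD (38.5% of the genes described), and 56 peaked from CT8 to CT12. Genes of lower range peaked on control from CT12 to CT16 in 32 of 77 cases (41.6%), against 21.2% of the 3354 genes with a rhythm called on control (24.2%). CT16 on MCD is the group without a library of the high kind; the part of this in the peak times was not tested.

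**Figure D2:**
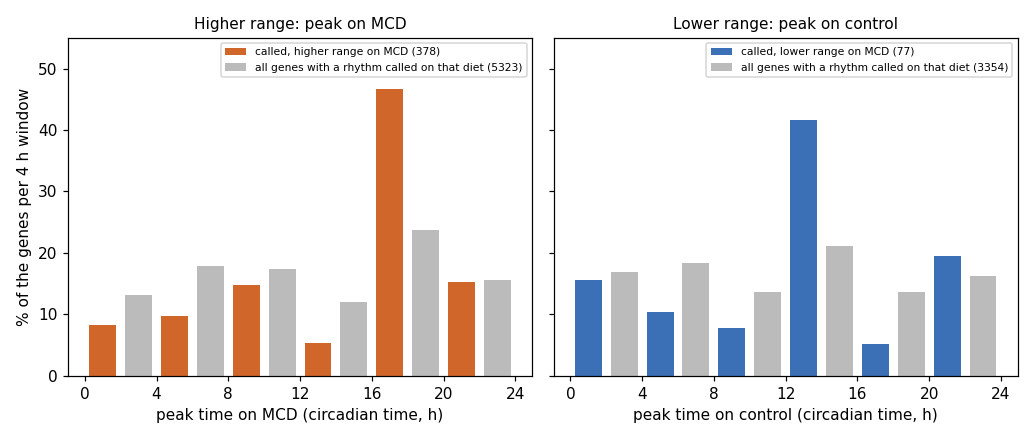
Share of genes (y axis, percent) whose fitted peak falls in each 4 h window of circadian time (x axis), for the 378 genes of higher range by their peak on MCD (left, orange) and the 77 of lower range by their peak on control (right, blue), beside all genes with a rhythm called on that diet (grey). The highest bars are CT16 to CT20 on the left with 46.6% and CT12 to CT16 on the right with 41.6%.

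Cytosolic ribosomal protein genes, which encode the protein parts of the ribosome, were called in 14 of 81 cases, 17.3% against the 6.89% of all genes, and all 14 had a larger fitted range on MCD, 9 of them by more than 2 SE. The changes were small. In these 14 genes the range had a median of 0.13 on control (0.03 to 0.19) and 0.37 on MCD (0.30 to 0.58). Rpl3 was among them with ranges of 0.18 and 0.58 (adjusted p = 0.0394, edgeR), and Rps15a with 0.03 and 0.54 (adjusted p = 0.0427). The fitted MCD peak fell between CT8 and CT12 for 73 of the 81 genes, called or not. Only 2 of the 81 had a rhythm called on both diets, so no control peak is set against it. Many of these genes have near-identical processed pseudogenes, so the split of reads between copies is uncertain, and they share libraries and scaling, so the 81 are not independent.

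Ralgps1, an exchange factor for Ral GTPases, lost its rhythm on MCD. On control it lay at 14.5, 16.8 and 26.1 CPM at CT20 and 4.52, 4.66 and 5.09 CPM at CT12. On MCD the 18 libraries lay between 5.78 and 8.11 CPM at all times. All MCD libraries were below the controls at CT20 and above them at CT12. The range was 1.55 ± 0.15 (SE) on control and 0.02 ± 0.15 on MCD (difference -1.52 ± 0.22, adjusted p = 0.00107, edgeR). Ralgps1 holds Angptl2 on the opposite strand inside its span, and whether counting used the strand is not stated.

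Caprin2, an RNA-binding protein, also became flat. On control it lay at 3.54, 4.87 and 5.31 CPM at CT4 and 0.719, 0.944 and 0.961 CPM at CT16, and on MCD at 2.96, 3.90 and 4.73 CPM and 3.17, 3.31 and 4.17 CPM at the same times. The diets overlapped at CT4, whereas at CT16 all MCD libraries were above the controls. The range was 1.93 on control and 0.18 on MCD (difference -1.75 ± 0.27 SE, adjusted p = 0.00188, edgeR). Shank2, best known as a scaffold of synapses, had ranges of 2.14 and 0.77.

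Sfpq, a splicing factor and paraspeckle protein, had a range of 0.80 on control and 0.32 on MCD. Marchf5, a ubiquitin ligase of the outer mitochondrial membrane, had 0.48 and 0.16, and the centrosomal Cdk5rap2 had 0.78 and 0.05. Uri1, a prefoldin-like protein, had 0.56 and 0.28. The mean over the day of these 4 genes was higher on MCD, by 0.25, 0.37, 0.33 and 0.18 log2 units in that order. Wee1, the kinase that holds CDK1 inactive and a textbook clock target, kept a strong rhythm with a range of 3.56 on control and 2.75 on MCD (difference -0.82 ± 0.26 SE, adjusted p = 0.00282, edgeR). Near the trough, at CT0, the MCD libraries lay at 4.59, 5.33 and 5.93 CPM and the controls at 2.61, 2.78 and 2.94 CPM, with no overlap.

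**Figure D3:**
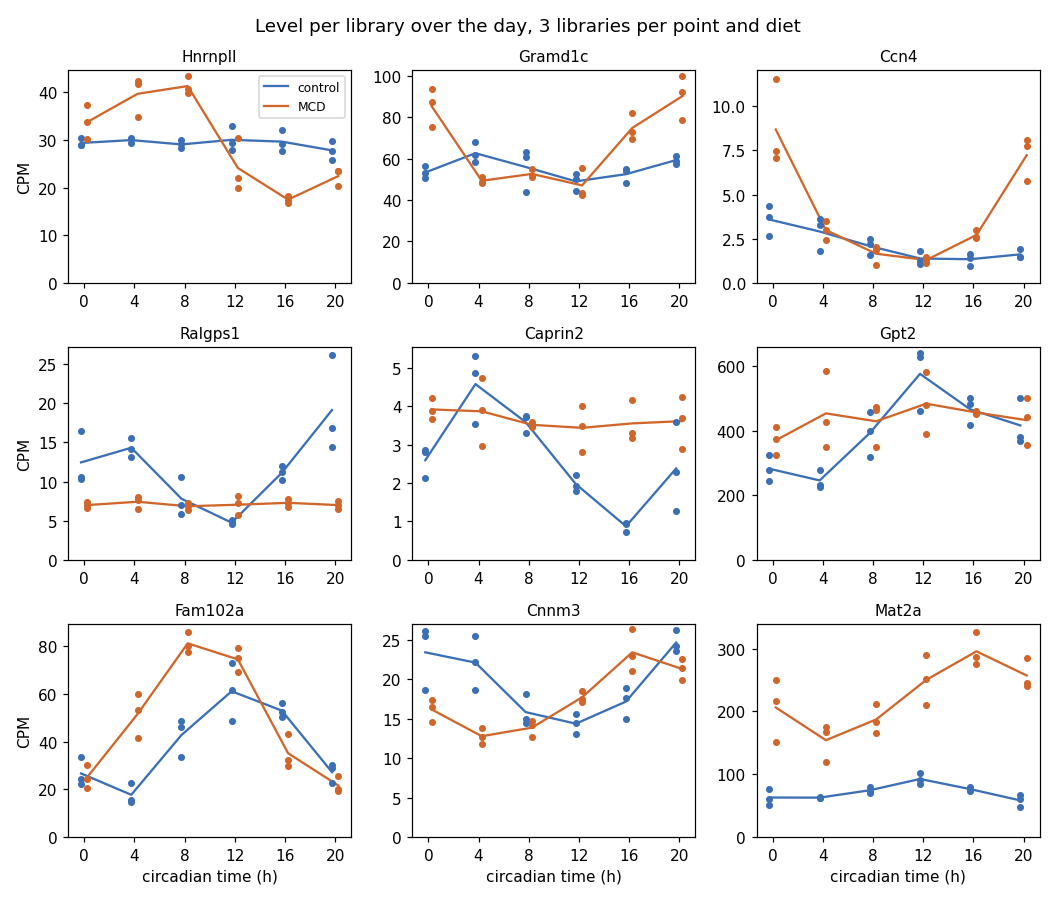
CPM (y axis, from 0) against circadian time in h (x axis) for 9 genes, blue for control and orange for MCD, with 1 point per library and a line through the means of 3 libraries. Hnrnpll and Gramd1c are flatter on control, Ralgps1, Caprin2 and Gpt2 are flatter on MCD, and Fam102a, Cnnm3 and Mat2a peak at different times on the 2 diets.

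Peaks came earlier on MCD. Of 2179 genes with a rhythm called on both diets, 1730 (79.39%) had an earlier estimated peak on MCD and 449 a later one, and the median gene was 1.74 h earlier, with quartiles at 0.32 and 3.03 h. The difference in rhythm was called for 356 of these (16.3%). The median was 1.64 h with a term for library kind, 1.19 h within the low kind and 1.20 h within the high kind (both with the cosinor model, which gave 1.76 h with all libraries), and 1.63 h without control CT08 a, and it lay between 1.56 and 1.96 h in the fits without 1 library each, from which a jackknife over libraries gave an SE of 0.514 h. It was 1.45 h without the libraries numbered 1, and 1.265 h on the 34 columns with a replicate number. In the male libraries alone it was 1.81 h and in the female ones 1.26 h, and no gene passed the test of a difference between the sexes in the diet effect on rhythm (0 of 20249 by edgeR, lowest adjusted p = 0.278, 930 genes with an unadjusted p under 0.05).

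The shift was present at all hours of the control peak. In the 6 windows of 4 h, the median peak was 1.29 h (control peak CT4 to CT8) to 2.18 h (CT0 to CT4 and CT8 to CT12) earlier on MCD. Among the 92 genes with a range of at least 2 on both diets, 87 peaked earlier, by a median of 1.67 h. Of the 344 genes with a moved peak, 310 (2.24% of the genes described) peaked earlier, by a median of 4.56 h and at least 1.30 h, and 34 later, by a median of 6.73 h. For the 22 genes whose peaks lay over 9 h apart, earlier and later can hardly be told apart on a 24 h circle. The count with a moved peak was 379 with the kind term and 421 without control CT08 a, and leaving out control CT04 1 or control CT16 1 gave 223 and 229.

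**Figure D4:**
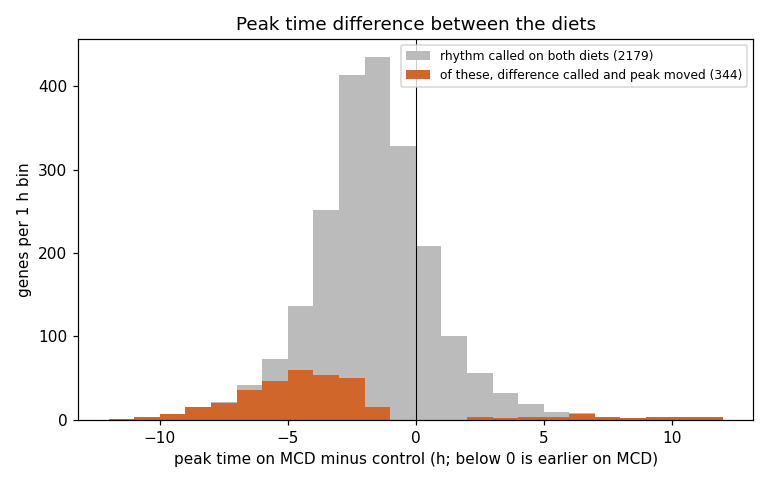
Number of genes per 1 h bin (y axis) by peak time on MCD minus control in h (x axis, below 0 is earlier on MCD), grey for the 2179 genes with a rhythm called on both diets and orange for the 344 with a moved peak. The grey distribution lies mainly below 0, with a median of 1.74 h earlier, and 310 of the 344 orange genes lie below 0.

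Fam102a had the smallest adjusted p of all genes. On control it lay at 48.6, 61.6 and 73.0 CPM at CT12 and 14.6, 15.6 and 22.7 CPM at CT4. On MCD it lay at 77.7, 79.9 and 85.8 CPM at CT8 and already at 41.3, 53.2 and 60.0 CPM at CT4, above all controls of that time. At CT16 the order was reversed, with 29.8, 32.3 and 43.1 CPM on MCD below 50.4, 52.3 and 56.2 CPM on control. The peak was at 13.3 ± 0.32 h (SE) on control and 9.10 ± 0.25 h on MCD, 4.21 ± 0.41 h earlier, and the range was 1.65 and 2.08 (adjusted p = 1.76e-05, edgeR).

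Cnnm3, of a family of membrane proteins tied to magnesium transport, kept its range and moved its peak. Its ranges were 0.81 and 0.88, and its peak was at 23.2 h on control and 17.2 h on MCD, 5.98 ± 0.67 h earlier (adjusted p = 0.000301, edgeR). At CT4 it lay at 11.8, 12.7 and 13.8 CPM on MCD and at 18.7, 22.2 and 25.5 CPM on control, and at CT16 at 21.0, 23.0 and 26.3 CPM on MCD and 14.9, 17.7 and 19.0 CPM on control. The groups were apart at both times and in opposite order. Ewsr1, an RNA-binding protein of the FET family, moved by 8.84 ± 0.95 h with ranges of only 0.30 and 0.33, and the transporter Slc35g1 by 6.34 ± 0.73 h. Ivns1abp and 1810055G02Rik peaked 5.52 ± 0.78 and 4.05 ± 0.62 h earlier with lower ranges on MCD.

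In the core clock, 19 of the 20 listed genes had a mean of at least 1 CPM. All 19 estimated peaks were earlier on MCD, and for the 16 genes with a rhythm called on both diets the median was 1.31 h, within the 0.32 to 3.03 h that hold the middle of all such genes. The difference in rhythm was called for 4 of 19 (21.1%): Arntl, Nfil3, Ciart and Tef, each with a moved peak. The other 15 did not pass. The share called was 6.89% over all genes but 16.3% over the 2179 genes with a rhythm called on both diets. Of the 92 such genes with a range of at least 2 on both diets, 22 were called. The share of the clock genes is thus near that of other rhythmic genes.

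Arntl, the positive arm of the clock, lay on control at 7.39, 23.9 and 27.8 CPM at CT4 and on MCD at 5.57, 7.41 and 8.43 CPM. At CT20 it lay at 32.3, 36.6 and 39.8 CPM on control, and MCD libraries at 43.2, 46.9 and 47.9 CPM. The diets overlapped at CT4 through 1 control library and were apart at CT20. Its peak was 1.30 ± 0.38 h earlier (21.6 and 20.3 h, adjusted p = 0.0269, edgeR), and the call was lost in 4 of the 36 fits without 1 library (control CT04 1, control CT04 2, control CT16 1 and MCD CT04 2, with adjusted p up to 0.064).

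Ciart, a repressor of the BMAL1 complex, lay at 0.339, 0.363 and 1.20 CPM at CT4 on control and at 2.31, 4.58 and 8.16 CPM on MCD. The MCD libraries were all above the controls at that time. The peak was 1.68 ± 0.38 h earlier (adjusted p = 0.0278, edgeR, up to 0.0682 in the 5 of 36 fits that lost the call, those without control CT04 1, control CT04 2, control CT16 3, MCD CT04 2 or MCD CT16 1). Tef, a D-box activator, peaked 1.31 ± 0.32 h earlier with ranges of 2.74 and 3.37. At CT20 it lay at 70.4, 73.0 and 94.6 CPM on control and at 34.0, 38.5 and 45.2 CPM on MCD, with no overlap. Nfil3, the D-box repressor, peaked 1.93 ± 0.42 h earlier and lay at 37.6, 47.6 and 54.3 CPM at CT16 on MCD and 25.5, 28.5 and 31.6 CPM on control, also without overlap.

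The promoters of 3 of these genes are shown because each holds an element of the clock loop upstream of its start. The other called gene, Arntl, holds no REV-ERB and ROR match upstream of its starts but holds one just after one of them, and only upstream stretches are printed. They come from the RefSeq table of build GRCm38.p6, while the counts were made on GRCm39; all sequences are written 5′ to 3′ on the gene's own strand, lie upstream of the start, and carry the matches in capitals. The E-box was searched as CACGTG, which reads the same on both strands. It is in the promoter window (250 bases before to 50 after the start) of 7.15% of the 32851 promoters of the table. The REV-ERB and ROR element was searched as TAGGTCA or TGGGTCA on both strands and is in 6.45%. A match is a description of the letters and not a bound site.
Ciart, chr3:95882247-95882364, minus strand, 3 E-boxes: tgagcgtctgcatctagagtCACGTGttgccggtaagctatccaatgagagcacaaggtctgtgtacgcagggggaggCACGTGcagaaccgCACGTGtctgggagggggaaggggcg
Tef, chr15:81802526-81802571, plus strand, 1 E-box: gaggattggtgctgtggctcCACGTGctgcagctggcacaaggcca
Tef, second start, chr15:81811256-81811301, plus strand, 1 E-box: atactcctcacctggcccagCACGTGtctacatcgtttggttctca
Nfil3, chr13:52981040-52981071, minus strand, 1 REV-ERB and ROR element read on the opposite strand: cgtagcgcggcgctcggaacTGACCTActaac

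The remaining core clock genes did not pass with all libraries, and 9 of the 15 are given here with their estimates. Per1 was 2.66 ± 0.70 h earlier (adjusted p = 0.054), Per3 1.60 ± 0.39 h (0.0579), Npas2 1.53 ± 0.45 h (0.133), Per2 1.66 ± 0.83 h (0.51), Nr1d1 0.98 ± 0.43 h (0.0949), Nr1d2 0.86 ± 0.40 h (0.0601), Dbp 0.79 ± 0.29 h (0.339), Cry1 0.54 ± 0.43 h (0.129) and Cry2 0.19 ± 1.04 h (0.973), all by edgeR. Some of these lay close to the threshold and passed under an alternative by edgeR. Per1 passed with the term for library kind (adjusted p = 0.0398) and without control CT04 3, control CT16 3, MCD CT04 3 or MCD CT20 2 (0.00784 to 0.0396). Nr1d2 passed without control CT08 a (0.0492), control CT16 3, control CT20 1 or MCD CT00 2 (the last at 0.0203), and Per3 without control CT04 3 (0.00153) or control CT08 3 (0.0409). All 3 passed when only the genes of at least 1 CPM were fitted (Per1 0.0368, Per3 0.0385, Nr1d2 0.0468), and Per3 also by limma (0.0269). DESeq2's likelihood ratio test, which called 1960 genes in all, passed these 3 and Nr1d1. By edgeR without the libraries numbered 3, all female, Per1, Per3, Npas2 and Dbp passed (0.00533 to 0.0454). Per1 passed in edgeR with DESeq2 size factors (0.049), and Npas2 without all CT08 libraries in a cosinor model (0.0423). Leaving out 1 library also gave a call for Dbp and Cry1 (without control CT04 3, 0.00965 and 0.0492), Npas2 (without control CT16 3, 0.00527), Nr1d1 (without MCD CT00 2, 0.0183) and Bhlhe41 (without control CT08 b, 0.0499). Ranges in this group were large on both diets for the strongest cyclers, with 6.35 and 5.52 for Nr1d1, 7.46 and 7.89 for Dbp and 8.04 and 8.12 for Npas2. Npas2 has no count in some libraries of CT12 on either diet, so its range depends on the prior count. Nr1d1 overlaps Thra and Dbp overlaps Sphk2 on the opposite strand, so their reads may be mixed.

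**Figure D5:**
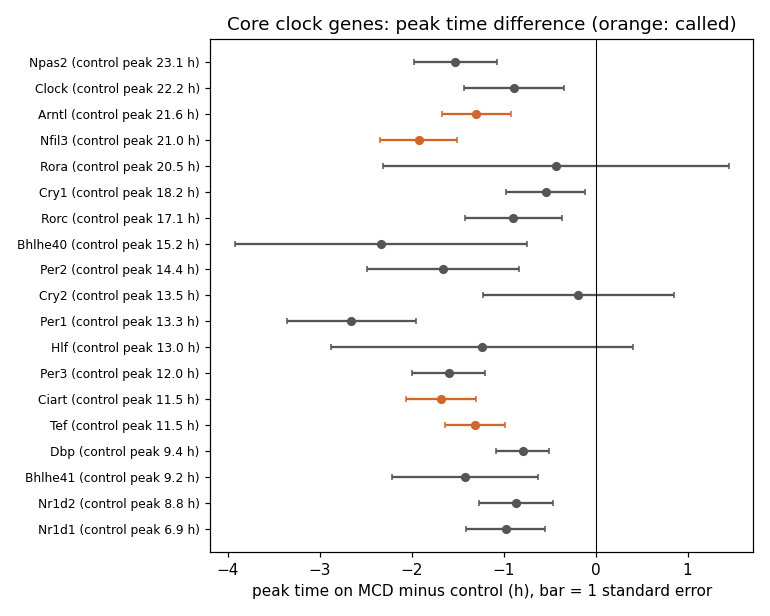
Peak time on MCD minus control in h (x axis) for 19 core clock genes, ordered by their control peak from the bottom up, with bars of 1 SE; orange marks the 4 genes called for a difference in rhythm. All 19 estimates lie below 0, from Cry2 (0.19 ± 1.04 h earlier) to Per1 (2.66 ± 0.70 h earlier).

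Of 17 textbook outputs of the liver clock, 9 were called (52.9% against 6.89% of all genes). A rhythm was called on both diets for 16 of the 17, and over all such genes the share called was 16.3%. Of the 92 such genes with a range of at least 2 on both diets, 22 were called. All 9 had an earlier peak on MCD, as did 310 of the 344 genes with a moved peak. Alas1, the first enzyme of haem synthesis, lay at 27.0, 30.4 and 90.4 CPM at CT4 on control, and MCD libraries at 222, 266 and 580 CPM, with no overlap. Its peak was 3.45 ± 0.60 h earlier (adjusted p = 0.00888, edgeR). Gys2, liver glycogen synthase, was 2.69 ± 0.54 h earlier with ranges of 1.51 and 2.14, and Nampt, the rate-limiting enzyme of NAD salvage, was 2.83 ± 0.63 h earlier. Lpin1, a phosphatidate phosphatase, was 3.50 ± 0.83 h earlier, Noct 2.70 ± 0.68 h, Por 2.35 ± 0.61 h, Coq10b 1.84 ± 0.46 h and Usp2 1.82 ± 0.41 h. The calls of Coq10b, Por, Usp2 and Noct were lost in 19, 16, 9 and 7 of the 36 fits without 1 library, with adjusted p of at most 0.0945.

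The heat shock response list holds chaperones that refold proteins after heat and also the cold-induced Rbm3 and Cirbp. Of its 20 genes 7 were called, 35% against 6.89% of all genes and 16.3% of genes with a rhythm called on both diets. All 7, Rbm3 among them, moved earlier. All 17 members with a rhythm called on both diets had earlier estimates, with a median of 3.03 h against 1.74 h over all such genes. A wider family of heat shock and J-domain genes by symbol, chosen after values were seen, gave these counts: 14 of 69 were called (20.3%), 8 of 10 moved peaks were earlier (310 of 344 over all genes), and 22 of 25 genes with a rhythm called on both diets had earlier estimates (1730 of 2179 over all genes), with a median of 2.13 h. The 14 called include Hsp25-ps1, by its symbol a pseudogene, so the split of reads between copies is uncertain there. Hspb1, a small chaperone, lay at 18.4, 26.9 and 37.7 CPM at CT12 on MCD and at 2.67, 4.30 and 4.98 CPM on control. At CT20 it lay at 10.5, 11.1 and 13.4 CPM on MCD and 15.1, 16.4 and 18.4 CPM on control. The groups were apart at both times and changed order. Its peak was 6.53 ± 1.13 h earlier (adjusted p = 0.00815, edgeR).

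Hsp90ab1, the constitutive cytosolic chaperone, was 4.12 ± 0.89 h earlier, and Hspa4l 3.19 ± 0.91 h with a lower range. Hspa4l lay at 46.5, 80.9 and 106 CPM at CT16 on control, and MCD libraries at 46.6, 46.8 and 54.3 CPM, and the diets overlapped there. Rbm3, an RNA-binding protein induced by cold, was 4.60 ± 0.85 h earlier (12.3 and 7.72 h). Hspd1 and Hspe1, the mitochondrial chaperonin and its partner, were 6.23 ± 1.41 and 3.99 ± 0.98 h earlier, and these 2 calls were lost in 8 and 13 of the 36 fits without 1 library (adjusted p up to 0.0715 and 0.0658). Hspd1 and Hspe1 also overlap each other on opposite strands.

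The heat shock element was searched as GAANNTTC or TTCNNGAA, which covers both strands, and is in 15.1% of the 32851 promoters. Hspe1 and Hspb1 are shown since each holds more than 1 match upstream of its start, those of Hspe1 overlapping each other. The stretch of Hspe1 also lies upstream of Hspd1, on the other strand, while the window of Hspa4l holds no match, which says only that these letters are not in it.
Hspe1, chr1:55088039-55088096, plus strand, 3 matches: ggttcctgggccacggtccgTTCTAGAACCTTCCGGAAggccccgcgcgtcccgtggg
Hspb1, chr5:135887782-135887849, plus strand, 2 matches: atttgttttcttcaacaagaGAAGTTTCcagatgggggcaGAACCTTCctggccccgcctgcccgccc

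In the methionine, choline and methyl transfer list, 3 of 31 genes were called, a share of 9.68% that is near the 6.89% of all genes, so the 3 are described singly and not as a result about the pathway. Mat2a, the S-adenosylmethionine synthetase found mainly outside the adult liver, was one of the few with a later peak. On control it lay at 84.4, 90.2 and 102 CPM at CT12 and 73.4, 75.4 and 79.7 CPM at CT16, and on MCD at 210, 251 and 290 CPM and 275, 286 and 326 CPM. The MCD libraries were above the controls at all 6 times, and the highest MCD time was CT16. Its peak was at 11.7 h on control and 16.4 h on MCD, 4.72 ± 1.07 h later (adjusted p = 0.0236, edgeR, 0.0509 without MCD CT20 2), and its mean was 1.65 log2 units higher. Mat2a overlaps the antisense gene Particl.

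Cbs, which draws homocysteine into cysteine synthesis, moved the other way. At CT16 it lay at 291, 301 and 312 CPM on MCD and 218, 242 and 244 CPM on control, and at CT8 at 251, 252 and 292 CPM on MCD and 365, 381 and 434 CPM on control. The groups were apart at both times and in opposite order, and the peak was 2.55 ± 0.40 h earlier (adjusted p = 0.00323, edgeR) at ranges of 1.30 and 1.38. Chdh, which oxidises choline towards betaine, had a range of 0.20 on control and 0.81 on MCD (difference 0.61 ± 0.20 SE, adjusted p = 0.0282, up to 0.0611 in the 4 of 36 fits that lost the call, those without control CT04 3, control CT16 2, MCD CT04 3 or MCD CT16 2). The other 28 genes did not pass, Gnmt, Bhmt and Pemt among them.

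Fatty acid synthesis genes were called in 4 of 20 cases (20% against 6.89%), of which 1 had a higher and 1 a lower range. The median range difference of the list was -0.57 log2 units against 0.04 over all genes, a value that rests mainly on genes that did not pass. Elovl5, an elongase of polyunsaturated fatty acids, lay at 728, 986 and 1010 CPM at CT20 on control, and MCD libraries at 190, 198 and 255 CPM, with no overlap. Its range was 1.54 and 0.94 and its peak 4.63 ± 0.90 h later on MCD (adjusted p = 0.00562, edgeR). Fads2, the delta-6 desaturase of the same pathway, did the opposite: its range was 1.11 and 1.86 and its peak 3.40 ± 0.85 h earlier (adjusted p = 0.0156). Acacb, whose product blocks entry of fatty acids into mitochondria, peaked at 19.1 h on control and 9.16 h on MCD, but its rhythm was not called on control (adjusted p = 0.0728). Lpin2 was called with all libraries and not without control CT08 a. By edgeR 0 of the 28 cholesterol synthesis and uptake genes were called, and their median range difference was -0.31.

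In fatty acid oxidation and PPAR alpha targets 1 of 28 genes was called (3.57% against the 6.89% of all genes). Cpt1a, the gatekeeper of mitochondrial oxidation, lay at 633, 641 and 652 CPM at CT4 on MCD and 301, 316 and 323 CPM on control, with no overlap, and peaked 3.10 ± 0.62 h earlier (adjusted p = 0.00842, edgeR). Of 16 bile acid genes 2 were called (12.5% against 6.89%). Abcb11, the bile salt export pump, was 2.79 ± 0.56 h earlier and Nr0b2, the repressor SHP, 7.36 ± 1.29 h earlier; the latter call was lost without MCD CT04 2 or MCD CT16 2 (adjusted p up to 0.0564). Irs1, an insulin receptor substrate, had ranges of 0.39 and 1.07, but its call (adjusted p = 0.0458) was lost in 28 of 36 fits without 1 library, with adjusted p up to 0.106. The lipid droplet protein Plin4 was 6.80 ± 1.21 h earlier, and the histidine-degrading Hal 7.02 ± 1.15 h.

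Among amino acid stress genes 3 of 22 were called (13.6% against 6.89%). Gpt2, a mitochondrial alanine aminotransferase, lay on control at 462, 628 and 640 CPM at CT12 and 227, 232 and 280 CPM at CT4, and on MCD at 390, 480 and 582 CPM and 349, 428 and 585 CPM. The diets overlapped at CT12 and were apart at CT4. Its range was 1.12 and 0.26 (difference -0.86 ± 0.21 SE, adjusted p = 0.0278, edgeR, lost without control CT04 1, control CT16 3 or MCD CT16 2 at up to 0.0577). Trib3, a pseudokinase induced by ATF4, peaked 7.64 ± 1.18 h earlier, with a mean 2.75 log2 units higher on MCD. Psph, the last enzyme of serine synthesis, had ranges of 0.55 and 1.33, lost in 6 of 36 fits without 1 library (adjusted p up to 0.0724).

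The unfolded protein response list had 3 of 22 genes called (13.6% against 6.89%): Derl1 with ranges of 0.20 and 0.50, Atf6 with a rhythm called on MCD alone, and Dnajb9, a chaperone of the endoplasmic reticulum, with a peak 8.03 ± 1.53 h later on MCD (lost without control CT00 1, MCD CT00 1 or MCD CT12 1, adjusted p up to 0.0603). Only 1 of the 5 members with a rhythm called on both diets had an earlier estimate, and their median was 1.49 h later. Gadd45a, a stress-response gene, was the 1 called gene of 22 in the glucocorticoid and fasting list (4.55%) and peaked at 11.1 h on control and 20.2 h on MCD, one of the peaks over 9 h apart whose direction is uncertain. In ribosome biogenesis 4 of 24 genes were called (16.7% against 6.89%). Ncl, the nucleolar protein nucleolin, was 5.18 ± 0.99 h earlier, Nop14 8.31 ± 1.58 h, and Ubtf, the RNA polymerase I factor, peaked at 6.23 h on control and 19.2 h on MCD; the call of Nop14 was lost in 7 of 36 fits (adjusted p up to 0.0565).

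In several other functions few or no genes were called, and these counts are too small to be read as results about the functions. There were 0 of 28 nuclear-encoded respiratory chain genes, 0 of 20 cell cycle genes, 1 of 29 drug metabolism genes (Cyp2c55, 5.78 ± 1.34 h earlier, lost without MCD CT20 3 at an adjusted p of 0.0525) and 1 of 23 acute phase genes (Crp, with ranges of 0.37 and 0.95), all shares below the 6.89% of all genes. In the immediate early list 2 of 16 were called (12.5%, above the 6.89%), with Ier2 at ranges of 0.20 and 0.84. Of 81 genes described by name, 41 overlap a gene on the opposite strand in the annotation used.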

How the data were processed

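RNA-seq of 36 mouse livers was used. The authors deposited whole-number counts per gene, per the file headers; the submitters' processing notes name Trimmomatic, HISAT2, StringTie, DESeq2 and GRCm39, without roles or versions, and the strand setting is not given in the sources used here. Both control male columns at CT08 share a name and were kept as replicates a and b. Counts were fitted in R 4.3.3 with edgeR 4.0.16 (TMM, filterByExpr with a minimum count of 10, robust quasi-likelihood), with 12 groups (each diet at each time) and sex; the 2 diet contrasts of the 24 h components were tested together and called at an adjusted p under 0.05. Ranges, peak times and SE came from least squares on log2 CPM (prior count 2; limma 3.58.1; DESeq2 1.42.0 as an alternative). The scripts were tested on simulated data. Members and lists were chosen with earlier results of these data known. Named genes were the 10 of smallest adjusted p per class and the called list members that had counts in every library and kept the call with the kind term and without control CT08 a, and core clock genes; the ribosomal protein genes and those said to have lost the call there fall outside this rule and were chosen after their values were seen. Overlaps come from GENCODE M21, which held all 81 gene IDs. Promoters were matched for 9941 of 13840 genes and 275 of 344 with a moved peak, under 80%, so shares of motifs per class are void and not given. Intervals from counts would cover counting error only.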

Additional observations from a re-analysis of the deposited data

How the results depend on the processing

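The count of called genes was 954, with 378 of higher range, 77 of lower range, 344 with a moved peak and 310 moved earlier. DESeq2's likelihood ratio test gave 1960, 672, 162, 563 and 509 in that order, and fits within the low kind of library, which also used a cosinor model, 7, 1, 3, 5 and 5, within the high kind, likewise, 0 for each, with median peaks 1.187 and 1.195 h earlier. Without replicate numbers 1, 2 or 3 in turn, the counts ran from 4 to 521, 3 to 156, 0 to 100, 1 to 219 and 1 to 196. Without 1 library each they ran from 618 to 1203, 249 to 454, 50 to 126, 214 to 436 and 188 to 401, the lowest without control CT04 2 and the highest without control CT08 a or, for moved peaks, control CT08 3. Lower-range genes numbered 126 without control CT08 a, 119 without control CT08 3 and 51 without all CT08 libraries in a cosinor model, a setting chosen after seeing the data (60 with that model and all libraries). Cry2, not called, had a range difference of the opposite sign without replicate 1; its adjusted p ran from 0.642 to 1 over the fits that left out samples. The cause of these changes was not tested.

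The replicate number as a block in place of sex, on the 34 columns that carry a number, gave 635, 235, 88, 205 and 176 and a median of 1.264 h earlier; the same columns without the block gave 778, 280, 106, 248 and 212 and 1.265 h. Deviations of same-numbered libraries correlated by -0.46 to 0.32 (median -0.06, 176 pairs), and 0 of 34 libraries correlated best with their own number. Number 3 is the female of every group, and sex was removed before the deviations were taken. This lowers agreement within a number, so these values cannot tell whether the numbers pair the samples. Normalization by DESeq2 size factors or library totals, limma, a cosinor model, no low-count filter, fitting only the genes of at least 1 CPM, a minimum of 5 CPM and the kind term kept each count within 1.5 times. There are 3 libraries per diet and time, and no fit at reduced depth was made.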
